A study of Rattus norvegicus with 24 samples.

Results

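The mitochondrial ribosomal proteins described here were all genes whose symbol in the transcript table begins with Mrpl (large subunit) or Mrps (small subunit) followed by a digit. They numbered 73 of the 15273 gene symbols in the table, and came from 92 of its 20027 transcripts. The values of a gene's transcripts were added together, and all 73 genes passed the filter on low values that left 11196 genes for testing. RNA was sequenced from the tibialis anterior, the main ankle dorsiflexor, of 12 male Wistar rats. In each animal the left hind-limb was trained by nerve stimulation from an implanted pulse generator, with 1 session per day, and the right limb of the same animal was not stimulated. The groups were the trained muscles after 2, 10, 20 and 30 days, with 3 animals each, and the 12 contralateral muscles, 3 from each time point, which served together as control, so the 4 comparisons share their controls. The last training bout ended 1 h before the muscles were taken. The submitters' design text speaks of 4 animals per time point, and the 3 that the labels list were analysed here. All animals carried the implant, so the contralateral muscle is a control for the limb and not for the surgery or for effects of training on the whole animal.

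Mitochondria have their own ribosome, which translates the few mRNAs encoded by the mitochondrial DNA into core subunits of the respiratory chain and of ATP synthase. The ribosomal RNAs are made inside the organelle, whereas every mitochondrial ribosomal protein is encoded in the nucleus, translated in the cytoplasm and imported. Some of these proteins have bacterial counterparts and others are found only in mitochondria, and skeletal muscle needs both to supply its oxidative phosphorylation complexes.

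Abundance is given as deposited TPM values (the share of each transcript in a muscle, scaled for transcript length) rescaled by a median-of-ratios factor per muscle. The factors ran from 0.778 to 1.14, and values of this kind do not show the sequencing depth, so the precision it gives is unknown. The summed abundance of 7 muscle fibre markers was 67774 to 82235 in the controls and 54540 to 94086 in the trained muscles. These 7 genes did not move together. The counts higher than control (limma, adjusted p under 0.05) were 1, 4, 2 and 1 in order of time. Those lower were 3, 3, 3 and 2. Their log2 fold changes ran from -2.27 to 0.98 at 10 days and from -3.23 to 0.74 at 20 days. The summed abundance of 6 fibroblast markers was 89.7 to 276 in the controls and 321 to 1021 in the trained muscles, and that of 8 macrophage markers was 9.41 to 26.4 and 26.6 to 71.2, and no marker in the table was at 0 in all muscles of a group. The sum of 4 endothelial markers was 22.5 to 36.5 in the controls, 40.0 to 42.1 at 20 days, above every control, and overlapped the controls at the other times. The sums of the Schwann cell, adipocyte, erythrocyte and neutrophil markers overlapped the controls at each time. By the same test, 1 of the 5 Schwann cell markers was higher at 2 days and 2 were lower at 30 days. At 10 and 20 days 0 of them differed. In bulk RNA, fewer cells of a type and less RNA per cell cannot be told apart. The 13 mitochondrially encoded mRNAs took 24.9% to 28.5% of all values in the trained muscles at 2 days, 23.4% to 27.4% at 10 days, 31.1% to 35.5% at 20 days and 39.9% to 43.9% at 30 days, against 27.8% to 43.7% in the controls. Contralateral muscle 1 of the 30-day group stood apart from the other controls with the 43.7%, the next highest being 34.6%. The part of these differences in the results below was not tested.

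Levels differed widely among the members. Their mean abundance over the 24 muscles ran from 1.18 for Mrps21l to 96.5 for Mrpl15, with a median of 25.1, and only Mrps21l and Mrpl33 were below 5. The next highest after Mrpl15 were Mrpl54, Mrpl12 and Mrpl17. The 2 loci called Mrps21l had identical values in every muscle and are named for their likeness to Mrps21, so how reads were divided among them is uncertain. More than 1 transcript was listed for 14 members, the most for Mrps14 with 6. Among the 12 contralateral muscles, compared as 4 groups of 3 by a limma F test, 0 members passed an adjusted p of 0.05, where 0.0625% of all genes tested did, and 5 members had an unadjusted p under 0.05. The summed abundance of the 73 members was 1919 to 2627 in the controls, 1888 to 2038 in the muscles trained for 2 days, 1858 to 2113 at 10 days, 2039 to 2504 at 20 days and 2207 to 2543 at 30 days. Each range of the trained muscles overlapped that of the controls, and the highest sum of all belonged to contralateral muscle 2 of the 2-day group.

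Mrpl45 was the exception among the members. It encodes the large-subunit protein that faces the inner membrane at the exit of the nascent chain (ENSRNOG00000010540, Rnor_6.0 chr10:85257876-85269807, plus strand, 1 transcript). In the controls its abundance was 25.3 at the lowest, 29.4 at the median and 32.2 at the highest. In the trained muscles it was 52.8, 70.4 and 68.1 at 2 days and 55.9, 69.3 and 63.2 at 10 days. It was 58.7, 61.9 and 56.1 at 20 days and 56.4, 62.4 and 51.9 at 30 days. Every trained muscle was above every control, and Mrpl45 was the only 1 of the 73 members with this separation, which 2.93% of all genes tested also had. No member had all trained muscles below all controls, which 1.30% of all genes tested had. Mean abundance was 2.22-fold, 2.19-fold, 2.05-fold and 1.98-fold that of the controls at the 4 time points.

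**Figure D1:**
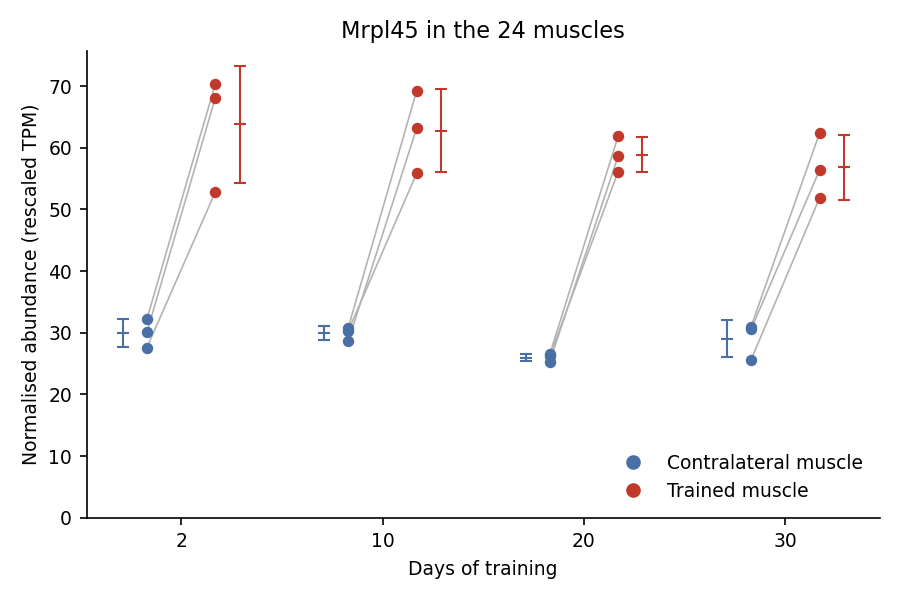
Normalised abundance of Mrpl45 (rescaled TPM, linear axis from 0) in the 24 muscles by days of training. Points are muscles, grey lines join the 2 muscles of an animal, and bars are mean ± SD of 3 muscles. The 12 trained muscles sit between 51.9 and 70.4, all above the contralateral muscles, which reach 32.2.

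On the log2(value + 1) scale the fitted rise of Mrpl45, in order of time, was 1.12, 1.10, 1.01 and 0.96, each with an SE of 0.10. The limma adjusted p-values were 6.48e-09, 7.45e-09, 4.74e-08 and 1.60e-07, and 5.24% of all genes tested were called higher at all 4 time points. No member was called lower at all 4, as 2.95% of all genes tested were. With each trained muscle set against its own contralateral muscle, the log2 ratio of Mrpl45 was between 0.86 and 1.19 in the 12 animals. In 11 of those animals no other member had a larger ratio, and in 1 animal of the 30-day group 1 member did. Its rise at 30 days and at 2 days differed by -0.16 (SE 0.12, limma adjusted p = 0.426), so no change with the length of training was detected on the rescaled values. On the values as deposited this difference was -0.49 (adjusted p = 0.0050), where the median of all genes tested was itself -0.27. The call was kept at each of the 4 time points under all 34 alternative settings. The reference lists a pseudogene of Mrpl45, and how the deposited quantification divided reads between such copies is not given in the sources used here.

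The sequence upstream of the genes was looked at for letters that transcription factors of mitochondrial genes are known to bind. A window of 250 bases before and 50 after the annotated start (RefSeq, GRCr8) was given for 57 of the 73 members, and 16 had none. The letters of 4 motifs were searched on both strands, namely the palindromic 10-base motif of NRF1, CCGGAAG for the ETS family to which GABP belongs, the E-box CACGTG, which MYC can bind, and a 10-base motif of YY1. No matches of different motifs overlapped. NRF1 letters were in 4 of the 57 member windows (7.02%) and in 1.13% of 18999 protein-coding windows, ETS letters in 18 (31.6%) and 11.2%, E-box letters in 4 (7.02%) and 7.26%, and YY1 letters in 7 (12.3%) and 1.54%. The YY1 letters lay after the start in each of these 7 windows. A match describes these letters in these windows and is not a binding site.

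The bases before the start are printed for Mrpl45. It alone of the members rose at all 4 times, and its window held no exact match to the 4 motifs. They are also printed for 3 of the 4 members with NRF1 letters, because these members shared the letters and differed in their calls. The search took exact letters only. The Mrpl45 bases hold gcgcacgcgc, the NRF1 letters with c in place of t, which an exact search does not count. Near matches were not counted in the other windows, so this one has no background beside it. Capitals mark the NRF1 match. Each run is 250 bases, 5′ to 3′ on the strand of the gene, GRCr8.
Mrpl45, chr10:82804789-82805038, plus strand: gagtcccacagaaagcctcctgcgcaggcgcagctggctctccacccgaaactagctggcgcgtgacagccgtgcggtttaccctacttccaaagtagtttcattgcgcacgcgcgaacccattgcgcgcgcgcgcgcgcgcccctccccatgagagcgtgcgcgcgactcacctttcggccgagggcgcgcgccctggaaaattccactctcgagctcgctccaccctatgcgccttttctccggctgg
Mrpl17, chr1:169575700-169575949, minus strand: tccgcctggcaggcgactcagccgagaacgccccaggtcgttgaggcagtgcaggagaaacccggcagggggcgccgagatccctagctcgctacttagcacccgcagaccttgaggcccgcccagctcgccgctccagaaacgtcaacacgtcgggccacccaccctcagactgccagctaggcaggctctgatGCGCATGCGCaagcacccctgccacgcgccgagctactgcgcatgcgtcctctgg
Mrpl32, chr17:55260401-55260650, plus strand: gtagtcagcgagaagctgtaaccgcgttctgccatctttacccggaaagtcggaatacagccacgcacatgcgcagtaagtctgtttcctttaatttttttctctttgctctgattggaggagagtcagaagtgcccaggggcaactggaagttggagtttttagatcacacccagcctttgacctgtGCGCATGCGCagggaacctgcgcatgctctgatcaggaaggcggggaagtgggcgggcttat
Mrpl44, chr9:88554800-88555049, plus strand: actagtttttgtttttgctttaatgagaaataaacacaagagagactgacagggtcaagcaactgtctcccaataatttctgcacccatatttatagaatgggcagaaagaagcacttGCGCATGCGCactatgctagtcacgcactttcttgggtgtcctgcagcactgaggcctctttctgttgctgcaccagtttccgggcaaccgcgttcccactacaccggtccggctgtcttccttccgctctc

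The NRF1 letters began 55 bases before the start of Mrpl17, 62 before that of Mrpl32 and 132 before that of Mrpl44. Mrpl17 was called higher than control at 20 days and Mrpl32 at 30 days, and their values are given with those comparisons. Mrpl44, a protein of the tunnel exit side that is named here for its window, was at 16.1, 11.7 and 13.4 at 2 days against 14.1 to 20.1 in the controls and was called lower (log2 fold change -0.32, SE 0.11, limma adjusted p = 0.0326). The fourth gene with these letters, Mrps18b, was not called at any time. Of the genes for the factors themselves, Myc was higher than control at all 4 times, with log2 fold changes of 2.93, 2.66, 2.19 and 1.45 (SE 0.24, limma adjusted p = 2.94e-09, 1.26e-08, 4.34e-07 and 0.000133), while Nrf1, Gabpa, Gabpb1 and Yy1 were not called at any time.

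After 2 days the rest of the family was more often lower than higher. Besides Mrpl45, which rose, 11 members were lower than control at an adjusted p under 0.05, or 15.1% of the 73, where 13.5% of all genes tested were lower and 15.4% higher. The share of members called lower was thus near the background, while the share called higher, 1.37%, was below it. The median log2 fold change of the members was -0.17, beside -0.01 for all genes tested, and 58 of the 73 were below 0. The proteins called lower included 4 of the 25 large-subunit members with bacterial homologues, 4 of the 20 large-subunit members specific to mitochondria and 3 of the 16 small-subunit members with bacterial homologues. None of the 10 small-subunit members specific to mitochondria was called at 2 days.

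Mrpl14, at the face of the large subunit that meets the small subunit and the docking site of the silencing factor Malsu1, fell most among the members called. In the muscles trained for 2 days its abundance was 23.3, 19.9 and 27.3, and in the controls it was 29.2 at the lowest, 34.2 at the median and 41.2 at the highest. The 3 trained muscles were below every control, with a log2 fold change of -0.54 (SE 0.12, limma adjusted p = 0.00107). This was the only lower call among the named members that was kept under every alternative setting. At 10 days the values were 23.9, 35.1 and 27.4, at 20 days 33.2, 34.1 and 33.4, and at 30 days 32.9, 35.2 and 23.6, and none of these groups passed the test.

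Mrpl42 and Mrpl50, both found only in the mitochondrial large subunit, were next. Mrpl42 was at 52.2, 41.3 and 45.4 at 2 days against 46.2, 59.9 and 85.6 for the lowest, median and highest control, so the groups overlapped (log2 fold change -0.43, SE 0.13, limma adjusted p = 0.0180). Mrpl50 was at 21.5, 20.8 and 21.1, below the lowest control of 23.8, with a log2 fold change of -0.40 (SE 0.11, limma adjusted p = 0.00578). The other members named at 2 days were Mrpl16, which lies near the peptidyl transferase centre, Mrps15, which binds the small-subunit rRNA, and Mrps21, a homologue of bacterial S21, at -0.40, -0.35 and -0.34. Mrpl16 was at 40.9, 38.3 and 39.6 against 42.2 to 64.2 in the controls, and Mrps15 at 39, 34.8 and 36.7 against 40.2 to 57.5, both without overlap. Mrps21, at 42.7, 39 and 47.9 against 46 to 66.6, overlapped the controls by 1 muscle. The limma adjusted p-values of the 3 genes were 0.0105, 0.0117 and 0.0228. All 3 muscles were below all controls for 6 members, where 6.18% of all genes tested had this pattern, and for 1 member, Mrpl45, all 3 were above, where 8.57% did. The lowest fold change at 2 days belonged to a member that was not called and is given because of that value. Mrpl1, the homologue of the bacterial L1 stalk protein, was at 0.179, 3.79 and 7.90 against 2.28 to 10.6 in the controls (log2 fold change -0.99, SE 0.44, limma adjusted p = 0.0957).

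The 11 lower calls at 2 days leaned on 1 library, since without trained muscle 2 there were 2. Lower calls over all genes tested also dropped in that setting, from 1507 to 586. With the animal as a replicate block there were 7, of which 4 were among the 11, where 1097 of all genes tested were lower against 1507 without it, and on the values as deposited there were 3, where the higher share of all calls was 74.5% against 53.4% after rescaling.

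**Figure D2:**
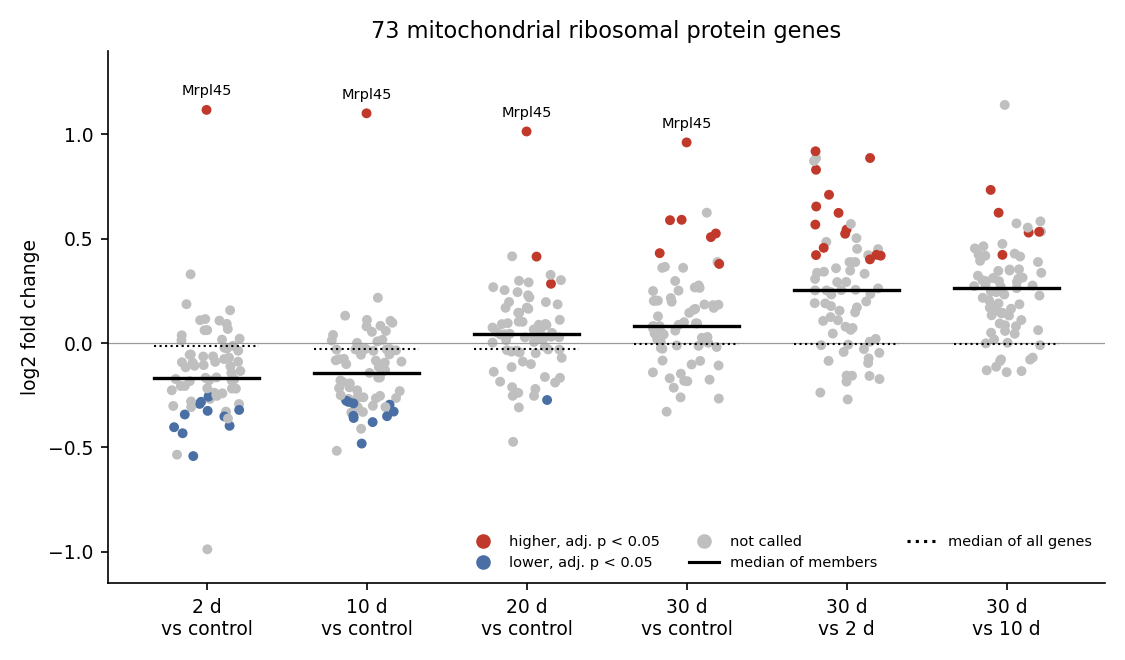
Log2 fold change (limma, log2(value + 1) scale) of the 73 members in the 4 comparisons with control and in the 2 contrasts between trained groups. Each point is a gene, red higher and blue lower at an adjusted p under 0.05, grey not called, and the solid and dotted bars are the medians of the members and of all genes tested. The median of the members is -0.17 at 2 days and 0.08 at 30 days, and Mrpl45 lies above every other member in the 4 comparisons with control.

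After 10 days the counts were close to those at 2 days. Mrpl45 rose and 10 members fell, 13.7% of the 73, where 13.3% of all genes tested were lower and 15.6% higher. The median log2 fold change was -0.14 beside -0.03 for all genes tested, with 58 members below 0. Mrpl15, Mrpl16, Mrpl42, Mrpl50, Mrps15 and Mrps5 were the 6 members called lower at both times. Mrpl42 was at 42.1, 42.5 and 49.1, a log2 fold change of -0.48 (SE 0.13, limma adjusted p = 0.00873), and 2 of the 3 muscles were below all controls. Mrps15 was at 33, 37.9 and 37.5 against 40.2 to 57.5 in the controls, below all of them, with -0.38 (SE 0.10, limma adjusted p = 0.00664).

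At this time the small-subunit proteins specific to mitochondria were among the members called, 3 of 10 being lower. Mrps22 was at 15.9, 16.3 and 15.8 against 17.2, 20.9 and 23.4 for the lowest, median and highest control, without overlap (log2 fold change -0.35, SE 0.09, limma adjusted p = 0.00461). Mrps27, a pentatricopeptide repeat protein, was at 10.3, 10.1 and 9.11 against 11.2 to 15.6, again without overlap, with -0.35 (SE 0.10, limma adjusted p = 0.00954). Mrpl28 was at 18, 21.1 and 25.9 against 21 to 34.2 and overlapped the controls, with -0.36 (SE 0.11, limma adjusted p = 0.0174). Mrpl15, the most abundant member, was at 77.5, 84.6 and 83.4 at 10 days, below all controls (86.9 to 123), and at 87.2, 77.7 and 83.1 at 2 days, when 1 muscle lay inside their range. Its log2 fold changes were -0.28 at 2 days and -0.30 at 10 days (SE 0.10, limma adjusted p = 0.0455 and 0.0359). All 3 muscles were below all controls for 5 members, where 8.15% of all genes tested had this pattern, and above them for Mrpl45 alone, where 10.0% did. Of the 10 lower calls, 2 were left without trained muscle 1 and 6 without trained muscle 3. Over all genes tested 910 and 1120 were lower in these settings, against 1494 with all muscles. With the animal as a replicate block 3 members were called lower, 2 of them among the 10, where 896 of all genes tested were lower against 1494 without it, and on the values as deposited 2 were, where the higher share of all calls was 75.5% against 53.9% after rescaling.

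After 20 days few members differed from control. Mrpl17, Mrpl40 and Mrpl45 were higher, 4.11% of the members where 11.7% of all genes tested were higher, and Mrps22 was lower, 1.37% where 9.64% were. The median log2 fold change was 0.04 beside -0.03, and 47 members were above 0. Mrpl40, a protein of the central protuberance at the top of the large subunit, was at 32.1, 24.5 and 29.4 against 16.8, 21.9 and 25.7 for the lowest, median and highest control, with 2 of 3 muscles above all controls (log2 fold change 0.41, SE 0.15, limma adjusted p = 0.0498). Mrpl17, the homologue of bacterial L17, was at 85.6, 79.8 and 75.8 against 54.3 to 79.1, with a log2 fold change of 0.28 (SE 0.09, limma adjusted p = 0.0294). Mrps22 was at 17.8, 16.3 and 16.7, close to its values at 10 days (-0.27, SE 0.09, limma adjusted p = 0.0308). For Mrpl45 alone were all 3 muscles above all controls, where 8.23% of all genes tested had this pattern, and for no member were all 3 below them, where 4.81% did. Without trained muscle 1 of this group the only member called higher was Mrpl45, and without trained muscle 2 the call of Mrpl17 was lost. Over all genes tested 1013 and 971 were higher in these settings, against 1314 with all muscles. The call of Mrpl40 was kept under 13 of 34 alternatives, and was lost on the values as deposited (0.41, adjusted p = 0.059), with no filter, with a pseudocount of 0.1 and with time-matched controls. The call of Mrps22 was lost without any 1 of the 3 trained muscles, with time-matched controls, with the animal as a replicate block (-0.22, adjusted p = 0.27) and on the values as deposited (-0.27, adjusted p = 0.051).

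By 30 days no member was called lower and 7 were higher, namely Mrpl32, Mrpl35, Mrpl40, Mrpl45, Mrpl47, Mrps16 and Mrps36. They made up 9.59% of the 73, where 11.1% of all genes tested were higher and 9.46% lower, so the share called higher was near the background and the share called lower was below it. The median log2 fold change was 0.08 beside -0.01 for all genes tested, and 54 members were above 0.

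Mrpl47, a tunnel-exit protein of the large subunit, was at 12.2, 15.8 and 16.7 at 30 days against 7.46, 9.48 and 13.2 for the lowest, median and highest control. Of the 3 muscles 2 were above all controls, and the log2 fold change was 0.59 (SE 0.16, limma adjusted p = 0.0110). Its locus shares bases with Actl6a on the opposite strand, and the strand setting of the quantification is not given in the sources used here, so reads of the pair may not be fully separated. Mrpl40 was at 30.1, 36.9 and 30.4, above all 12 controls, with a log2 fold change of 0.59 (SE 0.15, limma adjusted p = 0.00634). Mrps36, listed here by its symbol but known as a subunit of the 2-oxoglutarate dehydrogenase complex of the citric acid cycle, was at 31.9, 41.0 and 37.0 against 19.8 to 33.3 (0.52, SE 0.15, limma adjusted p = 0.0161). Mrpl32, whose maturation depends on the m-AAA protease, was at 21.1, 25.1 and 27.5 against 14 to 22.6 (0.51, SE 0.13, limma adjusted p = 0.00843).

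Mrpl35 was at 28.2, 34.6 and 35.7 against 19.6 to 30.9 and overlapped the controls by 1 muscle (log2 fold change 0.43, SE 0.13, limma adjusted p = 0.0212). Mrps16, a homologue of bacterial S16, was at 33.7, 35.7 and 39.8 against 21.8 to 32.3 (0.38, SE 0.11, limma adjusted p = 0.0199). All 3 muscles were above all controls for Mrpl40, Mrpl45 and Mrps16, where 7.48% of all genes tested had this pattern, and below them for no member, where 6.08% did. Without trained muscle 2 or trained muscle 3 of this group, 2 members were called higher, and without contralateral muscle 2 of the 2-day group 14 were. Over all genes tested 830, 875 and 1291 were higher in these settings, against 1245 with all muscles. With the animal as a replicate block the calls were Mrpl40 (adjusted p = 0.040) and Mrpl45 (adjusted p = 9.6e-05), where 807 of all genes tested were called higher against 1245 without it. The call of Mrpl40 was lost with time-matched controls (adjusted p = 0.068), and with the block once contralateral muscle 1 of the 30-day group was left out, an alternative chosen after seeing the data, when Mrpl45 and Mrpl47 were called. On the values as deposited 2 members were higher and 8 lower. On those values the median of all genes tested was itself at -0.18 and that of the members 0.05 above it, and the higher share of all calls was 20.0% where it was 54.0% after rescaling.

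The muscles trained for 30 days were then set against those trained for 2 days, a contrast within the same fit. Its estimate does not involve the controls, but they help set its SE and adjusted p-values. There were 14 members higher at 30 days and 0 lower, which was 19.2% of the 73 where 7.07% of all genes tested were higher and 7.91% lower. The median difference was 0.25 on the log2 scale beside -0.01 for all genes tested, and 58 members were above 0. The 14 were 9 of the 45 large-subunit members, 4 of the 26 small-subunit members and Mrps36. Of them 6 were lower than control at 2 days and 5 others were higher than control at 30 days.

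Mrpl47 differed most among those called, with 9.49, 5.28 and 7.86 at 2 days and 12.2, 15.8 and 16.7 at 30 days, a log2 difference of 0.92 (SE 0.21, limma adjusted p = 0.00362). Mrps36 went from 25, 14.8 and 19.2 to 31.9, 41.0 and 37.0 (0.89, SE 0.19, limma adjusted p = 0.00298). Mrpl40 went from 22.9, 14.6 and 16.7 to 30.1, 36.9 and 30.4 (0.83, SE 0.19, limma adjusted p = 0.00423). For these genes every muscle of the 30-day group was above every muscle of the 2-day group. The same held for Mrpl35, at 22.3, 16.2 and 20.7 and then 28.2, 34.6 and 35.7 (0.71, SE 0.17, limma adjusted p = 0.00524), and for Mrpl50, which went from 21.5, 20.8 and 21.1 to 30.3, 36.5 and 35.0 (0.65, SE 0.13, limma adjusted p = 0.00185).

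**Figure D3:**
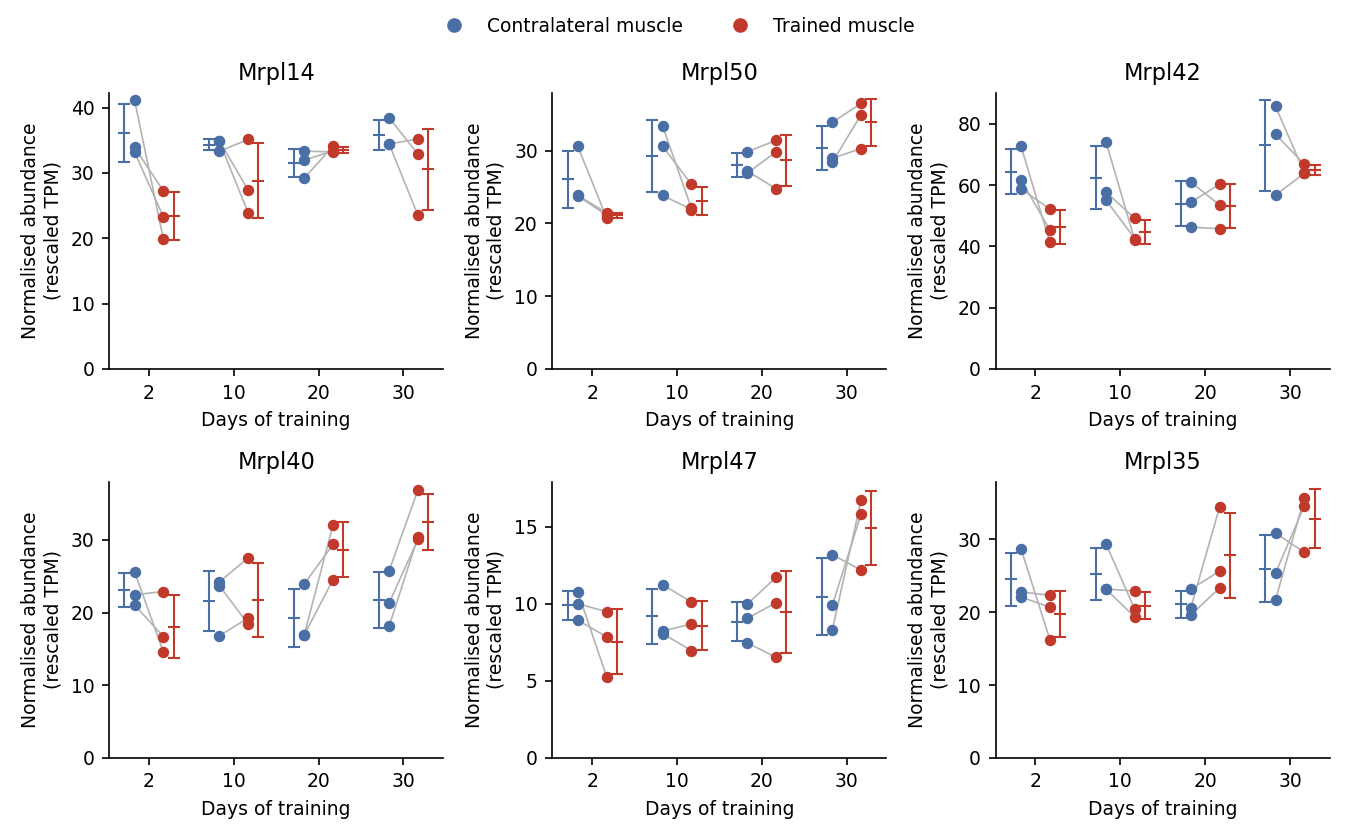
Normalised abundance (rescaled TPM, linear axes from 0) of 6 members by days of training in contralateral (blue) and trained (red) muscles. Points are muscles, grey lines join the 2 muscles of an animal, and bars are mean ± SD of 3 muscles. Mrpl14, Mrpl50 and Mrpl42 are low in the muscles trained for 2 days, and Mrpl40, Mrpl47 and Mrpl35 are high in those trained for 30 days, where Mrpl47 ranges from 12.2 to 16.7.

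Against the muscles trained for 10 days, 5 members were higher at 30 days, 6.85% where 1.65% of all genes tested were higher, and 0 were lower, where 2.29% were. They were Mrpl3, Mrpl35, Mrpl47, Mrpl50 and Mrps22, with log2 differences of 0.42 to 0.73 and a median over all members of 0.26, beside 0.00 for all genes tested. Mrpl3, a homologue of bacterial L3, which reaches toward the catalytic centre, was at 35.5, 42.2 and 35.4 at 10 days and at 52.9, 62.8 and 49.1 at 30 days (0.53, SE 0.14, limma adjusted p = 0.0341). Mrpl50 was at 22.1, 25.4 and 21.9 at 10 days (0.53, SE 0.13, limma adjusted p = 0.0269). Mrps35 had the largest difference in this contrast without being called, from 5.93, 5.92 and 5.62 to 13.8, 15.2 and 13.2 (1.14, SE 0.39, limma adjusted p = 0.102), and is given because of that value. Its controls ran from 5.20 to 19.6, which spans both groups.

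Both contrasts between trained groups depended on which muscles were compared. When the differences were taken between the trained-minus-contralateral values of the animals, with the animal as a replicate block, 0 members were called in either contrast, although the median difference was larger, at 0.34 against 2 days and 0.32 against 10 days. Few genes of any kind were called in that fit, 151 higher and 163 lower of 11196 against 2 days and 2 higher and 7 lower against 10 days, so the count of 0 is near the background. Without trained muscle 2 of the 2-day group 5 members were called higher at 30 than at 2 days, and without trained muscle 2 of the 30-day group 7 were. Over all genes tested 362 and 537 were higher in these settings, against 791 with all muscles. Against 10 days 185 of all genes tested were higher with all muscles. Without trained muscle 1 of the 10-day group or trained muscle 2 of the 30-day group 0 members were called, and 42 and 57 of all genes were higher. Without trained muscle 3 of the 30-day group 1 member was called, and 76 of all genes were higher. There were 2 members without trained muscle 2 of the 10-day group, where 66 of all genes were higher. There were 3 without trained muscle 3 of the 10-day group or trained muscle 1 of the 30-day group, where 168 and 127 were. The counts of 0 are near the background of their settings. On the values as deposited 4 members were higher and 9 lower at 30 than at 2 days, and 0 higher and 4 lower than at 10 days. On that scale the median of all genes tested was at -0.27 in both contrasts, and the members lay 0.20 and 0.21 above it. The higher share of all calls was 7.59% and 2.37% there, against 47.2% and 42.0% after rescaling.

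Within animals the members moved as a group to a degree that differed between animals of the same day. In the 2-day group 24, 2 and 22 of the 73 members were higher in the trained than in the own contralateral muscle, and in the 10-day group 6, 35 and 24 were. In the 20-day group 63, 48 and 36 were higher, and in the 30-day group 39, 56 and 52. The share of all genes tested that were higher lay between 46.7% and 51.8% in each of the 12 animals. The rescaling centres each muscle on its median ratio, which holds that share near the middle, so its steadiness is not a result. These counts were not taken on the values as deposited. Fewer members were thus higher than lower in each of the 6 animals trained for 2 or 10 days, and in 1 of the 6 trained for 20 or 30 days. The animal with 2 members higher was the one whose contralateral muscle had the highest summed abundance of members, 2627. Mrpl45 was higher in the trained muscle of 12 of the 12 animals and Mrpl17 of 10, whereas Mrpl16 was higher in 1.

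**Figure D4:**
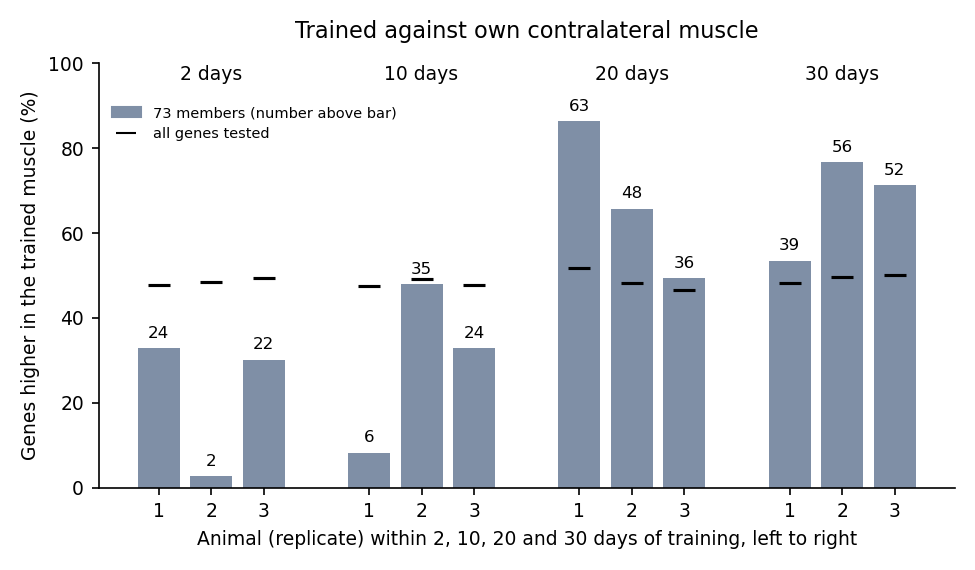
Share of the 73 members with a higher value in the trained than in the own contralateral muscle (bars, %, number of members above each bar) in the 12 animals, and the same share over all genes tested (black marks). The bars run from 2 members in animal 2 of the 2-day group to 63 in animal 1 of the 20-day group. The marks lie between 46.7% and 51.8%, where the rescaling holds them.

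By place in the ribosome, the 10 proteins of the central protuberance had 1 call over the 4 comparisons with control at each of 20 and 30 days, both Mrpl40, and none at 2 or 10 days. Of the 7 proteins at the tunnel exit and the membrane side, Mrpl45 was called higher at all 4 times, 2 others were lower at 2 days and 1 at 10 days, and Mrpl47 was higher at 30 days. Over all genes tested, 15.4%, 15.6%, 11.7% and 11.1% were higher in order of time. Those lower were 13.5%, 13.3%, 9.64% and 9.46%. Whether counts from lists of 10 and 7 genes differ from these shares was not tested. The stalk, where the translation factors bind, was represented by Mrpl12 and by Mrpl10 at its base. Mrpl12 was at 54.1, 67.7 and 88.8 for the lowest, median and highest control and between 60.9 and 92.4 in the trained muscles, and its log2 fold changes ran from 0.01 to 0.18 (SE 0.12), none called. Mrpl10 ran from -0.30 at 10 days to 0.09 at 20 days (SE 0.12), and none was called. Mrpl54, the next most abundant member after Mrpl15, ran from -0.33 at 30 days to -0.17 at 2 days (SE 0.14) and was not called either, but on the values as deposited it was lower at 30 days (-0.55, adjusted p = 0.0062).

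The 3 paralogues of bacterial S18 were at unequal levels on the length-scaled values, with control means of 39.8 ± 6.48 for Mrps18a, 51.7 ± 7.45 for Mrps18b and 23 ± 4.00 for Mrps18c (SD, n = 12). Mrps18a sits in the large subunit and the others in the small one. None of the 3 was called at any time, with log2 fold changes of 0.00 to 0.30 for Mrps18a, -0.33 to 0.09 for Mrps18b and -0.23 to 0.09 for Mrps18c. With the animal as a replicate block Mrps18c was lower at 10 days (-0.50, adjusted p = 0.022).

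Other parts of the mitochondrial translation system were described by counts for lists chosen with earlier results of these data known. Of 5 ribosomal proteins whose symbols lie outside the naming rule, only Ptcd3, a small-subunit pentatricopeptide repeat protein, was called, at -0.36 at 2 days and -0.40 at 10 days (SE 0.09, limma adjusted p = 0.00432 and 0.00193). Of 27 genes for assembly of the ribosome and modification of its RNA, the numbers called lower were 11, 6, 3 and 3 in order of time, and 0 were higher at any time. The share of all genes tested that was lower was 13.5%, 13.3%, 9.64% and 9.46%, so the counts at 20 and 30 days were near the background. Ybey, an endoribonuclease, was lower at all 4 times (-0.74, -0.62, -0.72 and -0.43, SE 0.13, limma adjusted p = 8.88e-05, 0.000583, 0.000165 and 0.0168). Eral1, a chaperone of the small-subunit rRNA, was lower at 2 and 10 days, at -0.35 and -0.46 (SE 0.09, limma adjusted p = 0.00605 and 0.00042).

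Among 14 translation factors 6 were lower at 2 days, 5 at 10 days and 0 at 20 and 30 days, to be read against the same shares over all genes. Tufm, the elongation factor that delivers aminoacyl-tRNA, was at -0.31 at 2 days (SE 0.11, limma adjusted p = 0.0320), and Gfm2, which takes part in recycling, at -0.59 (SE 0.14, limma adjusted p = 0.00202). Of 22 genes for mitochondrial tRNA synthetases and the glutaminyl-tRNA amidotransferase, the numbers called lower were 8, 5, 1 and 1 in order of time, and none was higher, the counts of 1 being below the background. The threonyl enzyme Tars2 was lower at all 4 times, at -0.40, -0.59, -0.44 and -0.45 (SE 0.10, limma adjusted p = 0.00486, 0.000118, 0.00298 and 0.00289). Beside these, the members had 11, 10, 1 and 0 lower calls among 73.

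The templates of the mitochondrial ribosome and the partners of its products had larger median differences than the members at 30 days. The 13 mitochondrially encoded mRNAs, the templates, had 2 lower calls at 2 days, 8 at 10 days, 0 in either direction at 20 days and 11 higher at 30 days, with median log2 fold changes of -0.40, -0.46, 0.05 and 0.65. Of 82 nuclear genes for oxidative phosphorylation subunits, 26 were lower and 1 higher at 2 days, 4 lower and 5 higher at 10 days, 7 higher at 20 days and 42 higher at 30 days, with medians of -0.28, -0.07, 0.18 and 0.36. Between 30 and 2 days 62 of these 82 genes and 12 of the 13 mitochondrial mRNAs were higher, where 14 of the 73 members were. Of the 68 cytoplasmic ribosomal protein genes 25 were higher and 0 lower at 2 days, with a median of 0.34, and 13 of the 68 were lower at 30 than at 2 days. Over all genes tested, 13.5%, 13.3%, 9.64% and 9.46% were lower and 15.4%, 15.6%, 11.7% and 11.1% higher in order of time. Between 30 and 2 days 7.07% were higher and 7.91% lower. The oxidative phosphorylation counts at 10 and 20 days were thus below the background, and the 2 lower mitochondrial mRNAs at 2 days near it. The counts of these lists come from the fit with shared controls on the rescaled values and were not taken under the alternatives. Between 30 and 2 days that fit called 791 of all genes tested higher. With the animal as a replicate block 151 were, and on the values as deposited 250 were. Differences between these lists were not tested.

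**Figure D5:**
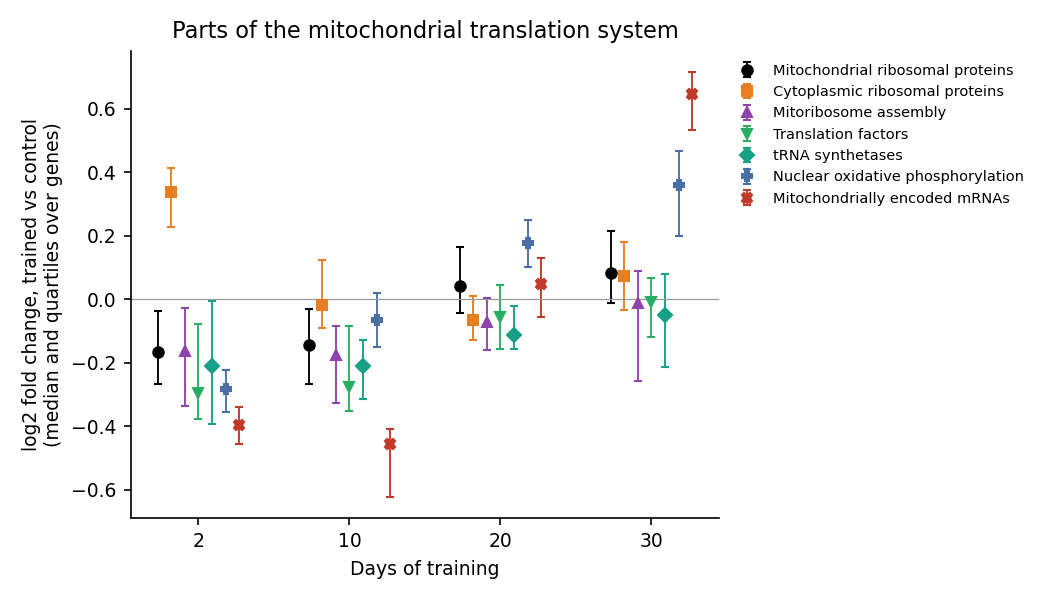
Median log2 fold change over genes (points) with quartiles (bars) for the 73 members and 6 other lists in the comparisons of each trained group with the 12 controls, by days of training. The members lie at -0.17, -0.14, 0.04 and 0.08, between the cytoplasmic ribosomal proteins and the mitochondrially encoded mRNAs at 2 days and below the latter, at 0.65, at 30 days.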

How the data were processed

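RNA was taken from the tibialis anterior of 12 male Wistar rats, trained and contralateral, and sequenced after poly-A selection as stranded libraries. Per the labels and the study's methods, the authors trimmed the reads and aligned them with STAR in Partek Flow to Rnor_6.0 (rn6), with Ensembl release 99_v2, and name DESeq2's median of ratios. The deposited transcript values are of the TPM kind, since every column has the same sum, so no counts and no depth were available, and n limits the precision. A gene-level table and a table of the authors' comparisons, which holds p-values, false discovery rates and ratios, were not used.

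Each muscle was rescaled by the median ratio over the 16230 transcripts above 0 in all muscles, because values with a fixed sum move with the mitochondrially encoded share. The transcripts of a symbol were summed, genes at 1 or more in at least 3 muscles were kept (11196), and log2(value + 1) was fitted with limma 3.58.1 (R 4.3.3) over 5 groups, the control and the muscles trained for 2, 10, 20 and 30 days. Tests were two-sided, with Benjamini-Hochberg adjustment over all genes tested and a threshold of 0.05. Fold changes on this scale understate the change of low genes. The fit with the animal as a replicate block rests on the labels, which give both muscles of an animal the same number. The deviations of the 12 pairs from their group means correlated with a median r of 0.174 (0.0277 to 0.343) over all genes tested. Over the members alone the median r was 0.288 (-0.511 to 0.685). For different animals of the same day the median over all genes was -0.100. Centring on the group means ties that value to the one for the pairs, so it is not a separate comparison. The fits were also run on simulated data with planted changes at 2 days. Planted log2 changes of 1 were recovered in 92.6% of cases by the main fit, 83.6% with time-matched controls and 76.8% with the block. Smaller planted changes were recovered in 52.8%, 32.0% and 18.6%. The simulated noise was independent between the muscles of an animal, so it does not show how the block performs on paired muscles. All simulated muscles shared the control mean of a gene, with no difference between days or animals. The lead of the main fit, which has the most controls, follows from that setting. None of the 276 pairs of libraries was identical.

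Promoters came from RefSeq (GRCr8). Named genes were, in each comparison with control, up to 6 members each way with the largest fold change among those called, up to 4 each way between trained groups, the 4 most abundant members, the stalk proteins, Mrpl45 and the Mrps18 paralogues. Members and lists were chosen with earlier results of these data known. Alternatives were the deposited scaling, transcripts not summed, a pseudocount of 0.1, a mean of at least 10 or no filter, an intensity trend, time-matched controls, the block and each muscle left out. The mitochondrial rRNAs were not analysed here. Plots were drawn with matplotlib 3.10.9 and tables with pandas 2.3.3.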

Additional observations from a re-analysis of the deposited data

Results flagged for a closer look

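The response of some members after 30 days differed from the response after 2 or 10 days, by the limma test of the difference between the trained groups. The shared controls cancel in the estimate of that difference and still help set its SE. On the log2 scale, between 30 and 2 days the difference was 0.92 for Mrpl47, 0.89 for Mrps36, 0.83 for Mrpl40, 0.71 for Mrpl35, 0.65 for Mrpl50 and 0.62 for Mrpl32. For Mrpl3 it was 0.57, for Mrps21 0.52, for Mrpl16 0.42 and for Mrps15 0.40. The limma adjusted p-values of these 10 genes ran from 0.00185 for Mrpl50 to 0.0484 for Mrpl16. Between 30 and 10 days the difference was 0.73 for Mrpl47, 0.62 for Mrpl35, 0.53 for both Mrpl50 and Mrpl3 and 0.42 for Mrps22, with limma adjusted p-values from 0.0269 to 0.0446. All 15 values were above 0. With the animal as a replicate block 0 members were called in either contrast, in a fit that called 151 genes higher and 163 lower of 11196 between 30 and 2 days and 2 higher and 7 lower between 30 and 10 days.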

How the results depend on the processing

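Of 43 calls made for named members, 5 were kept under all 34 alternatives (Mrpl45 at the 4 time points and Mrpl14 at 2 days), 38 were lost under at least 1, and 0 were reversed. On the values as deposited the median of all genes tested moved from -0.01, -0.03, -0.03 and -0.01 to 0.07, 0.07, -0.03 and -0.18 at 2, 10, 20 and 30 days and to -0.27 in both contrasts between trained groups. There, 2 members were higher and 3 lower at 2 days, 2 higher and 2 lower at 10 days, 0 lower at 20 days, 2 higher and 8 lower at 30 days, 4 higher and 9 lower at 30 than at 2 days, and 0 higher and 4 lower at 30 than at 10 days. With the animal as a replicate block 7 members were lower at 2 days, 3 at 10 days and 0 at 20 days, 2 were higher at 30 days, and 0 were higher at 30 than at 2 or 10 days, while 12 of the 43 calls were kept and the higher counts at 2, 10 and 20 days stayed at 1, 1 and 3. With time-matched controls the same counts were 7, 5, 0, 1, 0 and 0. Both were repeated without contralateral muscle 1 of the 30-day group, chosen after seeing the data, and gave 7, 3, 0, 2, 1 and 0 with the block, where Mrpl47 replaced Mrpl40 at 30 days, and 6, 5, 0, 1, 0 and 0 with time-matched controls. Transcripts not summed gave 7 lower at 2 days and 1 higher at 30 than at 10 days, where a pseudocount of 0.1 gave 3 and a mean of at least 10 gave 10. With each muscle left out in turn, the members called higher ran from 1 to 2 at 2 days, 1 to 2 at 10 days, 1 to 3 at 20 days and 2 to 14 at 30 days, and from 5 to 17 at 30 against 2 days and 0 to 7 at 30 against 10 days. Those called lower ran from 2 to 13 at 2 days, 2 to 12 at 10 days, 0 to 1 at 20 days and 0 to 1 at 30 days. The 2 higher calls at 2 and 10 days came without contralateral muscle 2 of the 2-day group or contralateral muscle 1 of the 10-day group, and the 1 lower call at 30 days without trained muscle 2 of that group. Calls over all genes tested moved too when a muscle was left out. Those lower ran from 586 to 1638 at 2 days and 910 to 1551 at 10 days. Those higher ran from 830 to 1300 at 30 days, 362 to 985 at 30 against 2 days and 42 to 231 at 30 against 10 days. Except where an alternative has fewer samples or genes, the cause of these changes was not tested. No filter and an intensity trend moved no count by more than 1.5 times. The depth behind the values is unknown, and 3 muscles per trained group limit what could be detected.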
